A study of Brassica oleracea with 107 samples.

Results

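The first day of warmth was examined in embryos of Brassica oleracea, to which cabbage and broccoli belong, by comparing embryos after 1 day at 26 °C with embryos kept at 16 °C for the same day. The comparison covers the 10604 genes at 1 TPM or more in at least 1 of 3 columns of the authors' embryo table: 26 °C on day 1, 16 °C on day 1, and 16 °C on day 0, which is the start point of both. That table lists 13120 genes, and the tables of both tissues together list 19732. TPM is a transcript abundance scaled by gene length and by the total of the library. Plants of all groups had been grown at 21 °C until bolting and then at 16 °C until their embryos reached the bent-cotyledon stage. Each embryo group was sequenced as 3 libraries, but the table holds 1 value per group, so no difference below has a replicate check, an error or a p-value, and sequencing depth is unknown. The whole series holds 107 libraries, 45 of embryo and 62 of endosperm with seed coat.

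At the bent-cotyledon stage the body plan of a Brassica embryo is largely laid out and the seed turns to filling. The embryo then accumulates storage proteins and oil, and later becomes tolerant of drying and may enter dormancy. The temperature felt by the mother plant during this period is known in several species to alter how dormant the ripe seed is. The tables give identifiers that begin with Bo and pair none with a gene name. None of the 19732 identifiers matched the 53125 genes of the RefSeq gene table, so genes are given here by identifier, without a function, and the tissue labels could not be checked against known marker genes.

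After 1 day, more genes were higher than lower at 26 °C. A gene was called when its log2(TPM + 1) differed by at least 2-fold between the 2 columns. By that rule 1102 genes were higher at 26 °C, which is 10.4% of those tested, and 468 were lower, which is 4.41%. Larger differences lay mostly on the higher side. At least 4-fold, 146 genes were higher (1.38%) and 17 lower (0.16%), and at least 8-fold, 39 were higher (0.368%) and 3 lower (0.0283%), which were Bo3g028030, Bo9g176680 and Bo1g103750. Over all 10604 genes the median log2 difference was 0.07. Column medians of log2(TPM + 1) were 3.26 at 26 °C and 3.15 at 16 °C. Once the columns were set to the same median, a shift of 0.10 log2 units, 858 genes were higher and 683 lower, so the share of higher genes among those called was 55.7% in place of 70.2%.

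The start point shows which column had moved. Day 1 at 16 °C was close to day 0. Of the genes tested, 97.4% lay within 0.5 log2 units between these columns, with 11 genes higher (0.104%) and 50 lower (0.472%) on day 1. Day 1 at 26 °C was far from day 0. Here 58.7% of the genes lay within 0.5 log2 units, and 930 were higher (8.77%) and 441 lower (4.16%) on day 1. The middle 90% of genes spanned log2 differences of -0.97 to 1.33 between 26 and 16 °C on day 1, of -0.95 to 1.26 between 26 °C on day 1 and day 0, and of -0.30 to 0.27 between 16 °C on day 1 and day 0. These 3 comparisons share columns, so they are given side by side and no overlap between them is counted as a result. For the 1102 higher genes the median was 16.7 TPM at 26 °C, against 4.99 TPM at 16 °C on day 1 and 5.77 TPM on day 0. For the 468 lower genes it was 8.42 TPM at 26 °C, against 21.98 TPM at 16 °C and 20.7 TPM on day 0. In both sets the day 0 median lay beside that of 16 °C.

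**Figure D1:**
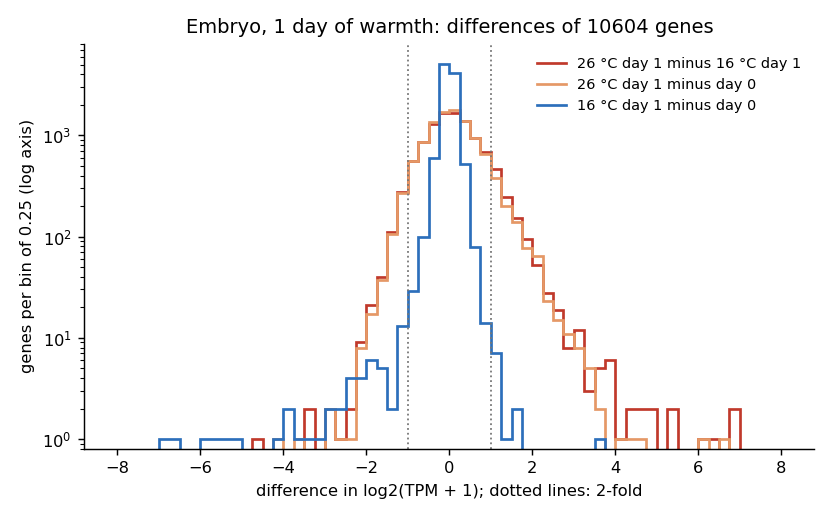
Number of genes (log axis) by difference in log2(TPM + 1), in bins of 0.25, for 26 °C against 16 °C on day 1, 26 °C on day 1 against day 0, and 16 °C on day 1 against day 0, over 10604 genes. Both comparisons that involve 26 °C spread widely past the dotted 2-fold lines, while 16 °C on day 1 against day 0 stays narrow apart from a tail of 50 genes on the lower side.

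The genes with the largest excess over day 0 were at little more than 1 TPM or below at the start. Bo3g044590 was at 221 TPM at 26 °C, against 1.02 TPM at 16 °C on day 1 and 1.17 TPM on day 0. Bo1g039850 was at 78.2 TPM at 26 °C, against 0.17 TPM at 16 °C on day 1 and 0.16 TPM on day 0. Only the 26 °C column was high for either gene. For day 3 the values of Bo3g044590 were 125 TPM at 26 °C, against 2.23 TPM at 16 °C, and Bo1g039850 at 42.3 and 0.23 TPM. At 16 °C both genes came up much later. By day 22, Bo3g044590 was at 2709 TPM at 26 °C, against 244 TPM at 16 °C, and Bo1g039850 at 2745 and 208 TPM. Both were thus high at 26 °C on day 1, when they were at about 1 TPM or below at 16 °C, and stayed above the 16 °C level on every sampling day.

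Bo1g039850 belongs to a small class of genes that were near absent at 16 °C. In all, 37 genes (0.349%) were under 1 TPM at 16 °C and at 5 TPM or more at 26 °C on day 1, and 1 gene, Bo9g176680, showed the reverse. Of the 37, 19 were also under 1 TPM on day 0, while 10 were at 5 TPM or more on day 0. For the 19 that were low at the start, the median was 7.68 TPM at 26 °C, against 0.37 TPM at 16 °C on day 1, 8.13 and 0.45 TPM on day 3, and 8.49 and 0.38 TPM on day 7. On day 22 it was 83.0 TPM at 26 °C, against 6.32 TPM at 16 °C. On days 3 and 7, 13 of the 19 were at 5 TPM or more at 26 °C and 0 of the 19 at 16 °C. On day 22 the numbers were 14 at 26 °C and 12 at 16 °C. Most of the 19 were thus at 5 TPM or more at 16 °C too on that day. All 19 entered the comparison through their 26 °C value of day 1 alone, and these counts have no share of all genes beside them.

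The genes with the largest deficit against day 0 were well expressed at the start. Bo3g028030 was at 2.39 TPM at 26 °C, against 77.1 TPM at 16 °C on day 1 and 57.4 TPM on day 0. Bo1g103750 was at 2.92 TPM at 26 °C, against 41.1 TPM at 16 °C on day 1 and 45.6 TPM on day 0. In each gene both 16 °C columns were high and the 26 °C column was low. On day 3 Bo3g028030 was at 2.30 TPM at 26 °C, against 15.9 TPM at 16 °C, and on day 15 it was listed at 0 at 26 °C and was at 0.37 TPM at 16 °C. Bo1g103750 was at 3.65 TPM at 26 °C, against 19.2 TPM at 16 °C on day 3, and its day 22 values were 0.93 TPM at 26 °C and 15.6 TPM at 16 °C. The low level of Bo3g028030 was thus reached at both temperatures, earlier at 26 °C, while Bo1g103750 stayed at 15 TPM or more at 16 °C through day 22. The remaining gene named for a large deficit, Bo9g176680, was at 0.03 TPM at 26 °C, against 10.4 TPM at 16 °C on day 1. It was listed at 0 on day 0, and on day 3 it was at 0.14 TPM at 26 °C, against 0.28 TPM at 16 °C. From day 0 to day 3 it thus stood out in the 16 °C column of day 1 alone. Later it was higher at 26 °C, at 17.4 TPM against 0.42 TPM at 16 °C on day 18, and 11.1 against 1.82 TPM on day 22. Bo3g032460, also named for an excess in the 16 °C column over the start, was at 27.7 TPM at 26 °C, against 101 TPM at 16 °C on day 1 and 40.6 TPM on day 0.

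**Figure D2:**
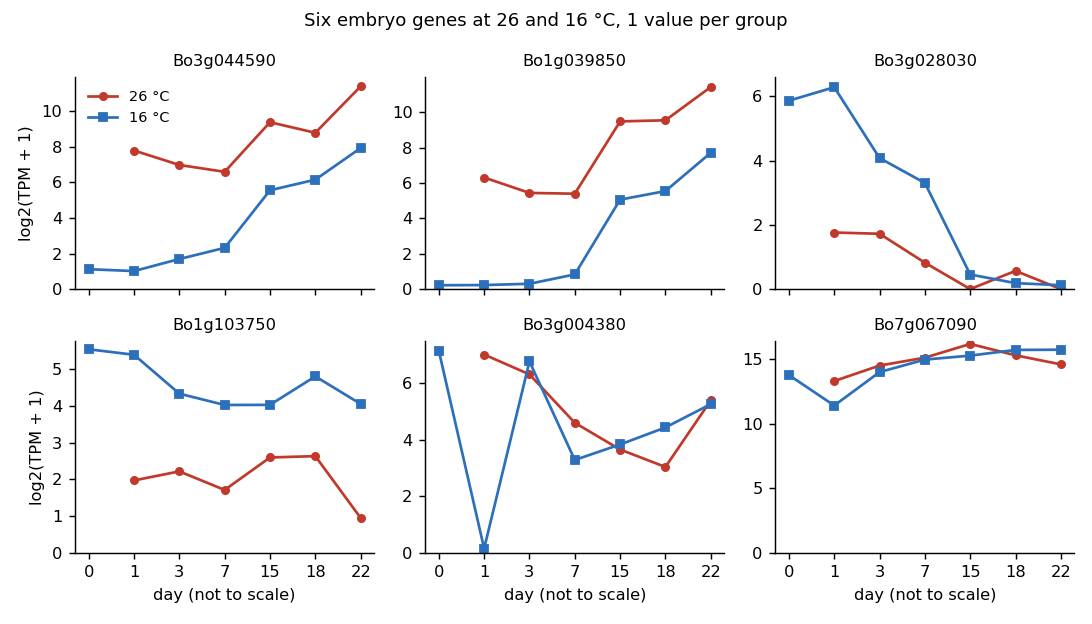
log2(TPM + 1) of 6 embryo genes by sampling day (days not to scale) at 26 °C (red circles) and 16 °C (blue squares, which include day 0), 1 value per group. Bo3g044590 and Bo1g039850 are above the 16 °C level on each day, Bo3g028030 and Bo1g103750 are below it on day 1, and Bo3g004380 and Bo7g067090 differ on day 1 through a low 16 °C value.

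The share of lower calls varied with abundance on day 0. Among the 3616 genes at 5 to 20 TPM, 9.18% were higher at 26 °C and 4.20% lower, and among the 2233 at 20 to 100 TPM, 9.05% were higher and 7.17% lower. Among the 742 genes at 100 TPM or more, 7.01% were higher and 11.1% lower. The lower calls thus outnumbered the higher ones only in the most abundant of these 5 classes, though with both columns set to the same median they also did at 20 to 100 TPM, at 9.81% lower and 6.90% higher. For low genes the rule itself bears on the direction. A gene under 1 TPM at 16 °C cannot be 2-fold lower on the log2(TPM + 1) scale, and a gene under 1 TPM on day 0 is in the comparison only if it reached 1 TPM on day 1. The shares of the 3276 genes at 1 to 5 TPM, 10.5% higher and 2.05% lower, and of the 737 genes under 1 TPM, 23.5% and 0.95%, are therefore given as values alone. The median log2 difference was 0.13 at 1 to 5 TPM, 0.02 at 5 to 20 TPM, -0.09 at 20 to 100 TPM and -0.23 at 100 TPM or more.

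In terms of transcripts, the higher genes held 9.26% of all TPM at 26 °C and 3.31% at 16 °C on day 1, against 5.23% on day 0. The lower genes held 1.30% at 26 °C and 3.36% at 16 °C, against 3.27% on day 0. A few very abundant genes weighed on these sums. The largest excess in TPM was that of Bo7g067090, at 10272 TPM at 26 °C, against 2753 TPM at 16 °C on day 1 and 14172 TPM on day 0. Next was Bo7g111280, at 26350 TPM at 26 °C, against 20541 TPM at 16 °C and 26200 TPM on day 0, which is a log2 difference of 0.36 between the temperatures and not a 2-fold call. The largest deficit was that of Bo1g053590, at 37190 TPM at 26 °C, against 58772 TPM at 16 °C and 39422 TPM on day 0. In these 3 genes the 26 °C value was nearer to day 0 than the 16 °C value was. Bo4g137010 was different, at 437 TPM at 26 °C, against 1463 TPM at 16 °C and 1568 TPM on day 0. It was also far more abundant in endosperm, at 18522 TPM at 26 °C, against 42051 TPM at 16 °C on day 1. Without Bo7g067090 the higher genes held 8.23% of TPM at 26 °C and 3.04% at 16 °C, against 3.81% on day 0.

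A set of genes differed on day 1 through a low 16 °C column, with the 26 °C column near the day 0 level. At 16 °C, 30 genes had a day 1 value at least 2-fold under those of both day 0 and day 3, and 4 had one at least 2-fold over both. All 30 were among the genes called higher at 26 °C, to which the low 16 °C column itself contributes. At 26 °C on day 1, 28 of the 30 were within 2-fold of day 0 and the remaining 2 were above it. Of all genes tested, 8.77% were 2-fold above day 0 in that column and 4.16% below it. Within 0.5 log2 units of day 0 lay 18 of the 30, where 58.7% of all genes did. Nearness to day 0 at 26 °C was thus not particular to these 30 genes. Their median was 38.4 TPM at 26 °C, against 1.91 TPM at 16 °C on day 1 and 22.9 TPM on day 0, and on day 3 it was 37.7 TPM at 26 °C, against 17.5 TPM at 16 °C. They include 15 of the 39 genes called 8-fold higher at 26 °C.

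The gene with the largest log2 difference of the whole comparison is of this kind. Bo3g004380 was at 127 TPM at 26 °C, against 0.11 TPM at 16 °C on day 1 and 140 TPM on day 0, and on day 3 it was at 77.8 TPM at 26 °C, against 107 TPM at 16 °C. Bo3g004390 was at 84.0 TPM at 26 °C and was listed at 0 at 16 °C on day 1, against 99.9 TPM on day 0, and on day 3 it was at 43.6 TPM at 26 °C, against 67.4 TPM at 16 °C. For both genes the 16 °C value was high on day 0, low on day 1 and high again on day 3. Both were scarcer in endosperm, where Bo3g004380 was at 1.69 TPM at 26 °C, against 11.0 TPM at 16 °C on day 1 and 10.2 TPM on day 0. Of the 30 genes, 26 are listed for endosperm. Of these, 3 were 2-fold lower there at 16 °C on day 1 than on day 0, a count with no share of all genes beside it. Bo7g067090 was among the 3, at 131 TPM at 26 °C, against 10.9 TPM at 16 °C on day 1 and 88.1 TPM on day 0. Columns that stand apart from both neighbours were not peculiar to day 1: on day 18 at 16 °C, 48 genes were 2-fold below both day 15 and day 22, against 1 gene on day 3 and 4 genes each on days 7 and 15 when set against their own neighbours. With 1 value per group, a single low library and a drop in all 3 libraries cannot be told apart. Leaving the 30 genes out gave 1072 higher and 468 lower genes.

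**Figure D3:**
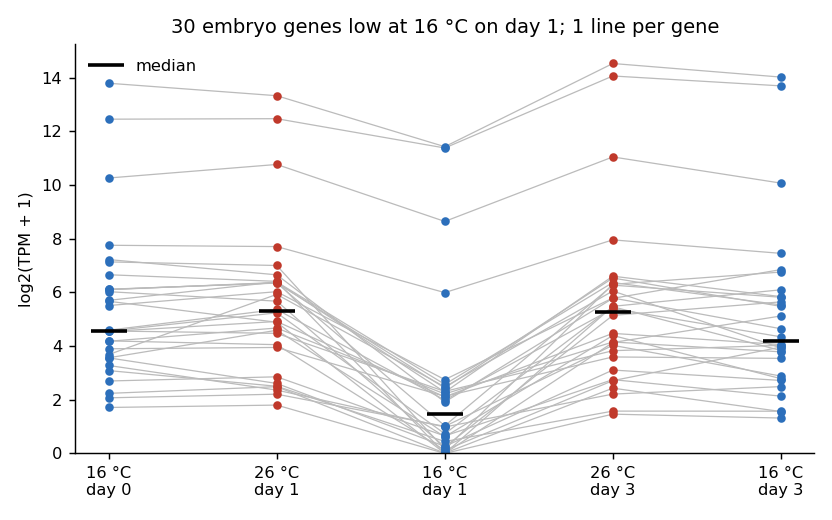
log2(TPM + 1) of the 30 embryo genes whose 16 °C value of day 1 was at least 2-fold under those of days 0 and 3, with 1 grey line per gene, red points for 26 °C, blue points for 16 °C and a black bar for the median. The 26 °C values of day 1, with a median of 38.4 TPM, sit among those of days 0 and 3, and the 16 °C values of day 1, with a median of 1.91 TPM, sit below them.

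Genes of the surrounding tissue also stood higher in the 26 °C embryo column, by an amount that depended on how they were defined. For genes at least 8-fold more abundant in endosperm on day 0, the planned definition, the summed TPM was 1.32-fold that at 16 °C on day 1. It was 1.28-fold with a 4-fold definition and 2.41-fold with a 32-fold one, which is followed first below. Embryo and endosperm were separated by dissection, so genes listed for both tissues and at least 32-fold more abundant in endosperm than in embryo on day 0 were followed in the embryo columns. These 169 genes summed to 2485 TPM at 26 °C, against 1031 TPM at 16 °C in embryo on day 1 and 1122 TPM on day 0. On day 3 the sums were 1189 TPM at 26 °C, against 850 TPM at 16 °C. In endosperm itself the same genes summed to 125195 TPM at 26 °C, against 163246 TPM at 16 °C on day 1. Of the 169, 100 differed by less than 0.5 log2 units between temperatures in endosperm, and these summed to 1719 TPM at 26 °C, against 643 TPM at 16 °C in embryo and 706 TPM on day 0. Of the 500 genes at least 8-fold more abundant in endosperm, 133 (26.6%) were called higher in embryo and 4 lower, where 12.0% and 4.52% of the genes listed for both tissues were. These genes were chosen for a day 0 level in embryo below that in endosperm, and genes low in embryo on day 0 had more higher calls in general. The sums of the 500 genes in embryo were 6814 TPM at 26 °C, against 5159 TPM at 16 °C and 5547 TPM on day 0. Of the 394 genes at least 8-fold more abundant in embryo, 38 (9.64%) were higher and 25 (6.35%) lower. The part of endosperm or seed coat RNA in the embryo differences was not tested, and in whole tissue a change in the number of cells of a type cannot be told apart from a change in RNA per cell. Without the 890 genes at least 4-fold more abundant in endosperm, the day 1 comparison gave 904 higher and 455 lower genes out of 9714.

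Most genes called on day 1 lay on the same side of the 16 °C value on days 3 and 7, and part of them were again 2-fold apart. The columns of the later days play no part in the day 1 call. On day 3, 464 of the 1102 higher genes (42.1%) were again 2-fold higher at 26 °C and 2 were lower, where 5.93% of all genes tested were higher. On day 7, 479 (43.5%) were higher and 5 lower, against a background of 8.57% higher. Of the 468 lower genes, 45 (9.62%) were again 2-fold lower on day 3, where 0.886% of all genes were, and 77 (16.5%) on day 7, where 2.39% of all genes were. Without the 2-fold rule, 1075 of the 1102 higher genes (97.5%) lay above the 16 °C value on day 3, where 62.2% of all genes did, and 435 of the 468 lower genes (92.9%) lay below it, where 37.8% of all genes did. The median log2 difference of the higher genes was 1.31 on day 1, 0.91 on day 3 and 0.88 on day 7, and that of the lower genes was -1.18, -0.50 and -0.62.

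From day 15 the shares called the same way as on day 1 were nearer to those of all genes. On that day 526 of the 1102 higher genes (47.7%) lay above the 16 °C value, where 38.1% of all genes did, and 388 of the 468 lower genes (82.9%) lay below it, where 61.7% of all genes did. On day 15, 133 of the higher genes (12.1%) were higher at 26 °C and 170 (15.4%) lower, where 9.24% of all genes were higher and 15.7% lower. On day 18 the shares were 15.2% higher and 18.4% lower, against 11.3% and 20.7% of all genes. On day 22, 395 (35.8%) were higher and 126 (11.4%) lower, against 24.1% and 15.9% of all genes. Without the 2-fold rule, 727 of the higher genes (66.0%) lay above the 16 °C value on day 22 and 365 (33.1%) below it. Of all genes, 46.3% lay above it and 53.1% below. Of the lower genes, 21.2% were lower on day 15, 16.9% on day 18 and 17.5% on day 22, where 15.7%, 20.7% and 15.9% of all genes were. In the opposite direction, 1.92%, 5.34% and 5.98% of the lower genes were higher at 26 °C on these days, where 9.24%, 11.3% and 24.1% of all genes were. Across the 10604 genes the log2 difference of day 1 correlated with that of day 3 with Pearson's r of 0.78, with day 7 at 0.67, with day 15 at 0.18, with day 18 at 0.12 and with day 22 at 0.24. These are descriptions across genes, which share the libraries and scaling of each column and are not replicates.

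Persistence was counted by the size of the day 1 difference. Of the 956 genes that were 2- to 4-fold higher at 26 °C on day 1, 36.4% were 2-fold higher on day 3 and 38.2% on day 7. Of the 107 genes that were 4- to 8-fold higher, 81.3% and 79.4% were. Of the 39 genes at least 8-fold higher, which include 15 of the 30 with a low 16 °C value, 74.4% were on each of these days. On the lower side, 8.65% of the 451 genes that were 2- to 4-fold lower on day 1 were lower on day 3 and 14.4% on day 7, and among the 17 with a deficit of 4-fold or more, 6 were on day 3 and 12 on day 7. On all 5 later days, 50 of the higher genes (4.54%) were called higher, where 0.632% of all genes were, and 7 of the lower genes (1.5%) were called lower, where 0.141% of all genes were. On no later day were 328 of the higher genes (29.8%) called higher, where this held for 66.5% of all genes, and 289 of the lower genes (61.8%) called lower, where it held for 69.3%. On at least 1 later day, 305 of the higher genes (27.7%) were called lower, where 30.7% of all genes were. In the same way, 37 of the lower genes (7.91%) were called higher, where 33.5% of all genes were.

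**Figure D4:**
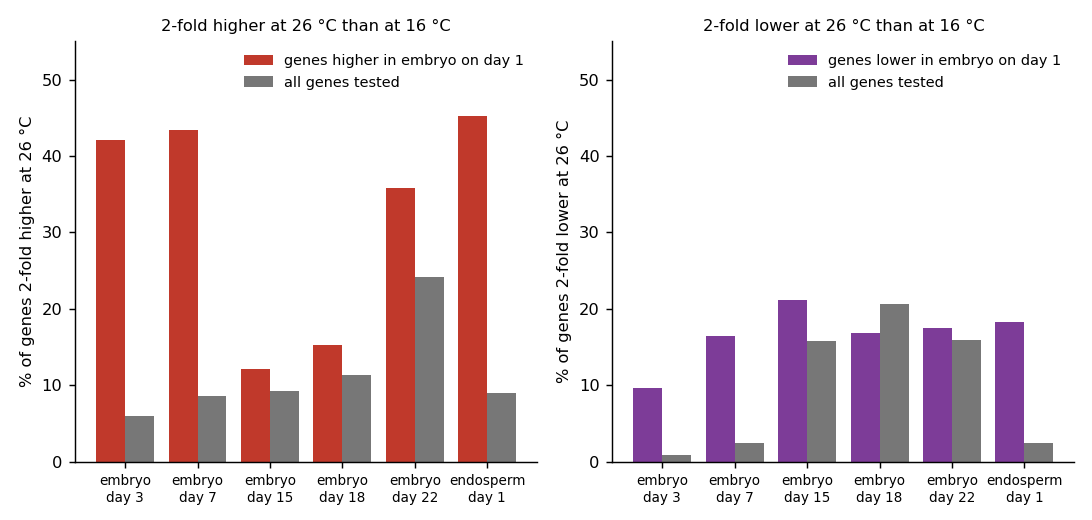
Percentage of genes 2-fold higher at 26 °C than at 16 °C (left) or 2-fold lower (right) in embryo on days 3 to 22 and in endosperm on day 1, for the genes called that way in embryo on day 1 (coloured bars) and for all genes tested (grey bars). The coloured bars exceed the grey ones most on days 3 and 7 and in endosperm, with 42.1%, 43.5% and 45.2% for the higher genes, and lie near them for the lower genes from day 15.

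The 2 sets of genes differed in their course at 16 °C, but also in their level at the start. Day 0 medians were 20.7 TPM for the lower and 5.77 TPM for the higher genes. On the log2(TPM + 1) scale a gene of low level has less room to be called 2-fold lower. The shares below are not matched for level. Of all genes tested, 25.8% were 2-fold lower in TPM at 16 °C on day 7 than on day 0, and 52.8% on day 22. The genes tested had to reach 1 TPM on day 0 or day 1, which leaves out genes that come on later. TPM is also relative, so a rise of very abundant genes lowers the others. At 16 °C, Bo1g053590 rose from 39422 TPM on day 0 to 105126 TPM on day 7, and Bo7g111280 from 26200 to 86811 TPM. The part of the fall that this makes up was not tested. Of the genes lower at 26 °C on day 1, 304 of 468 (65.0%) were 2-fold lower at 16 °C on day 7 than on day 0, and 402 (85.9%) on day 22. Of the genes higher at 26 °C, 181 of 1102 (16.4%) were lower on day 7 and 336 (30.5%) on day 22, while 201 (18.2%) were higher on day 22, where 7.75% of all genes were. The median of the lower genes at 26 °C was 8.42 TPM on day 1, 8.52 TPM on day 3, 3.58 TPM on day 7 and 0.996 TPM on day 22. At 16 °C it was 20.7 TPM on day 0, 21.98 TPM on day 1, 12.1 TPM on day 3, 6.77 TPM on day 7 and 1.92 TPM on day 22. The 26 °C level of day 1 thus lay between the 16 °C levels of days 3 and 7. Genes higher at 26 °C showed no such course. Their median was 16.7 TPM at 26 °C on day 1, against 5.77 TPM on day 0 and, at 16 °C, 4.88 TPM on day 3, 3.80 TPM on day 7 and 4.77 TPM on day 22.

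**Figure D5:**
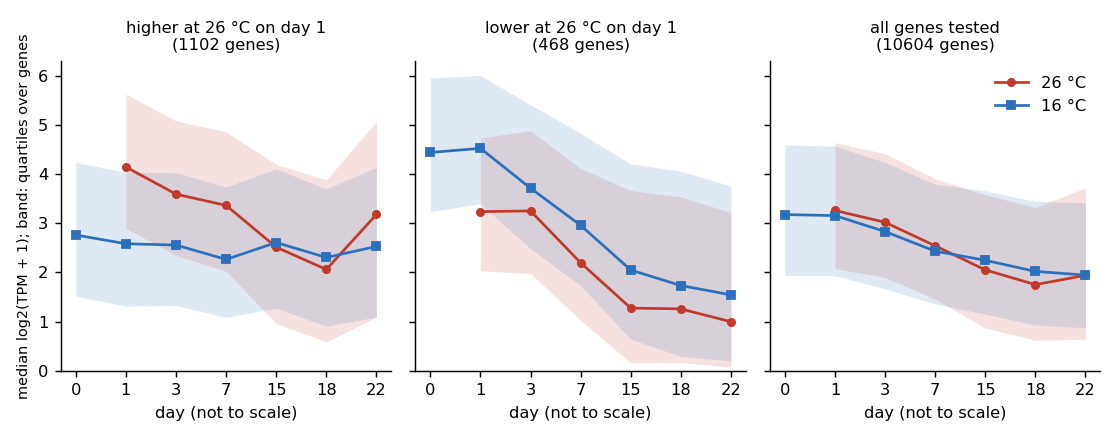
Median log2(TPM + 1) by sampling day (days not to scale) at 26 °C (red circles) and 16 °C (blue squares) for the 1102 genes higher at 26 °C on day 1, the 468 lower genes and all 10604 genes tested; bands span the quartiles over genes, not an error. Higher genes stay above their 16 °C level on days 3 and 7 and meet it on day 15. On day 22 their median is again above it, at 8.05 TPM against 4.77 TPM. Lower genes decline at both temperatures.

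Seeds returned from 26 to 16 °C were sampled on days 18 and 22. On day 18, 6.53% of the day 1 higher genes were 2-fold higher in recovery embryos than at 16 °C, where 5.28% of all genes were. More of them, 16.9%, were 2-fold lower, where 11.4% of all genes were. On day 22, 26.9% were higher and 7.26% lower, where 17% and 9.64% of all genes were. Of the day 1 lower genes, 8.12% were lower in recovery embryos on day 18 and 11.8% on day 22, where 11.4% and 9.64% of all genes were. In the opposite direction, 5.13% and 5.34% of the lower genes were higher on these days, where 5.28% and 17% of all genes were. The recovery column and the 26 °C column of a day are set against the same 16 °C column.

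Endosperm with seed coat, labelled with the same day and sequenced with the same library protocol as embryo on day 1, showed part of the same differences. Of the 10604 genes, 7869 are also listed for endosperm, among them 944 of the higher and 356 of the lower genes. In endosperm on day 1, 427 of the 944 (45.2%) were 2-fold higher at 26 °C and 8 were lower, where 9.01% of the genes of both tables were higher. Of the 356, 65 (18.3%) were lower and 0 higher, where 2.41% were lower. Without the genes at least 4-fold more abundant in endosperm, 369 of 746 (49.5%) were higher in endosperm, against 8.80% of all genes left. Bo3g044590 was at 118 TPM at 26 °C, against 0.43 TPM at 16 °C in day 1 endosperm, and Bo1g039850 at 41.3 and 0.37 TPM. Bo1g103750 was lower there too, at 5.25 TPM at 26 °C, against 15.3 TPM at 16 °C. Of the 2735 genes not listed for endosperm, 158 (5.78%) were higher in embryo and 112 (4.10%) lower, against 12.0% and 4.52% of the genes listed for both. By its name the endosperm table holds differentially expressed genes, so being listed may itself depend on a difference in endosperm. A gene not listed may still be expressed there, and these shares are given as values alone.

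In the separate endosperm series labelled in hours, the day 1 embryo genes were less distinct. At hour 24, 252 of the 944 higher genes (26.7%) were higher at 26 °C, where 16.3% of all genes were, and 24 of the 356 lower genes (6.74%) were lower, where 6.07% were. In the opposite direction at hour 24, 7.84% of the higher genes were lower, where 6.07% of all were, and 10.7% of the lower genes were higher, where 16.3% of all were. At hour 1, 11.4% of the higher genes were higher, where 10.2% of all were, and 12.5% were lower, where 7.27% of all were. At that hour 7.30% of the lower genes were lower, where 7.27% of all were. At hour 72, 23.4% of the higher genes were higher, where 22.9% of all were, and 17.7% were lower, where 11.8% of all were. Of the lower genes, 7.02% were lower at hour 72 and 26.4% higher, where 11.8% and 22.9% of all were. The leading genes went the other way in this series. Bo3g044590 was at 136 TPM at 26 °C, against 692 TPM at 16 °C at hour 1, and Bo1g039850 at 1552 and 3916 TPM. The labels do not tell which event starts the count of hours.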

How the data were processed

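Per the labels' protocols, embryos were dissected from endosperm with seed coat under a microscope, RNA was extracted, and the libraries used here of embryo, of endosperm on days 0 to 3 and of the hour series were made with a standard Illumina protocol. Per the submitters' processing notes, cutadapt 1.9.1, STAR 2.5 and featureCounts were used. No genome build, annotation or strand setting is given in the sources used here. The values are TPM as the authors deposited them, 1 column per group. No source used here says how the libraries of a group became 1 value. By their names the tables hold differentially expressed genes, which means a selection made by the authors on these same samples, with no rule stated. In the 3 embryo columns the listed genes sum to between 49.1% and 51.7% of 1000000 TPM, so the scaling took in genes beyond those listed.

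Differences were computed as log2(TPM + 1), which understates the change of low genes, over genes at 1 TPM or more in at least 1 of the 3 columns, with Python 3.11.15 and pandas 2.3.3. TPM keeps no record of depth, so no counting interval is given. With 1 value per group no test could be run, and a 2-fold rule took its place. The calling script was tested on simulated data with known changes larger than the cutoff, which checks the code and not how reliable the calls are. Alternatives were pseudocounts of 0.1 and 5, no filter and a filter at 5 TPM, median centring, and rescaling without the 10 most abundant genes of each column. Named identifiers were the 2 with the largest and the 2 with the lowest log2 difference in each of 3 comparisons, where the higher of the compared columns reached 5 TPM, and the 2 with the largest and 2 with the lowest TPM difference on day 1. Genes, lists and rules were chosen with earlier results of these data known. The set of 30 genes low at 16 °C on day 1, and leaving it or the endosperm genes out, were chosen after the values were seen. Gene lists by function could not be looked up.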

Additional observations from a re-analysis of the deposited data

Results flagged for a closer look

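Of the 944 genes higher at 26 °C in embryo on day 1 and listed for both tissues, 8 (0.847%) were 2-fold lower at 26 °C in endosperm on the same day, where 2.41% of all genes of both tables were. They stand here because the difference between 26 and 16 °C had opposite signs in the 2 tissues. Of the 8, 6 belong to the 30 genes that were low in the 16 °C embryo column of day 1. With 1 value per group the difference between tissues was not tested.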

How the results depend on the processing

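No paired analysis was possible because each group has 1 column, and for the same reason no replicate could be left out. With a pseudocount of 0.1, the day 1 comparison of the 2 temperatures gave 1632 genes with an excess at 26 °C and 809 with a deficit. The excess side then made up 66.9% of the calls, against 70.2% with a pseudocount of 1. Set against day 0, the 26 °C column gave 1388 genes with an excess and 748 with a deficit. For 16 °C on day 1 against day 0 there were 38 higher and 93 lower genes. The shares with the same call on day 3 were then 51.4% of the higher and 16.7% of the lower genes, and those with the same call in endosperm were 49.2% and 28.5%. With a pseudocount of 5, 492 genes were higher and 185 lower at 26 °C than at 16 °C on day 1, 423 exceeded day 0 at 26 °C and 185 lay under it, and for 16 °C on day 1 these numbers were 5 and 31. A filter at 5 TPM made the day 3 share of the higher genes 46.1%. Median centring made the day 3 shares 34.6% and 17.1%, and the endosperm shares 37.8% and 23.2%. Rescaling without the 10 most abundant genes made the day 3 share of the lower genes 12.7% and the endosperm shares 39.9% and 23.7%. In each of these settings the shares stayed above those of all genes tested, which were at most 10.7% and 2.18% on day 3 and 14.3% and 4.46% in endosperm. Without the genes 4-fold more abundant in endosperm the endosperm share of the higher genes was 49.5%. Without the 30 genes low at 16 °C on day 1, 20 genes were lower at 16 °C on day 1 than on day 0. With the 8-fold definition, the genes preferential to endosperm summed in embryo at 26 °C to 1.32-fold the 16 °C value on day 1. With the 4-fold definition it was 1.28-fold, and with the 32-fold one 2.41-fold. The log2 differences of the named genes kept their sign and their side of 2-fold in all 123 values computed under other settings. Only the pseudocounts, median centring and rescaling could move them, as a setting that only adds or drops genes leaves a gene's own difference unchanged. Depth is unknown, so what it limits cannot be given.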
